A study of Mus musculus with 4 samples.

Results

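The genes of the proteasome were examined in lung RNA. They were taken as every row whose symbol began with Psma, Psmb, Psmc, Psmd or Psme followed by a number, without the interferon-induced subunits Psmb8, Psmb9 and Psmb10, and with a mean normalized read count of at least 4 over the libraries. Of 23282 rows, 42 had such a symbol and 41 passed. The row left out was Psmb11, a thymus subunit, with a mean of 3.20, while the lowest that passed were Psma8 with 7.35 and Psmc3ip with 122. The 41 genes comprised 14 subunits of the 20S core (7 alpha and 7 beta), 17 subunits of the 19S cap, 3 assembly chaperones of the cap, 4 activators and 3 other symbols that the pattern took, Psma8, Psmc3ip and Psme2b.

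Lungs came from CDF1 mice in 4 groups of 10, which crossed high-intensity treadmill exercise (E) with tumor (T). The normal control E(-)T(-) had neither, the normal exercise group E(+)T(-) ran, the cancer control E(-)T(+) had received CT26 murine colorectal carcinoma cells through the tail vein, and the cancer exercise group E(+)T(+) had both. All mice were male according to the methods, no allele or transgene was involved, and the labels give postnatal day 28, which equals the age the methods give at purchase. The methods place the isolation of tissues at the end of the experiments, so the age at sampling was later. One library was sequenced per group and the sources do not state for lung whether its RNA came from 1 mouse or a pool, although the study describes the muscle libraries as from a representative mouse of each group and the lung analysis as similar, so no group had a replicate spread, no test was run, and every difference below compares single libraries. CT26 cells and their host are both mouse, so tumor and host RNA cannot be told apart. In such bulk tissue, fewer cells of a type and less RNA per cell cannot be told apart either.

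The proteasome degrades proteins that carry ubiquitin chains. Its 20S core is a barrel of 2 outer alpha rings, which gate the entrance, around 2 inner beta rings, in which Psmb6, Psmb7 and Psmb5 provide the caspase-like, trypsin-like and chymotrypsin-like active sites. The 19S cap binds the substrate, removes the ubiquitin and threads the chain into the core through a ring of ATPases. Because each particle needs its subunits in fixed proportion, their genes are known to be controlled together, in part by the factor NRF1 (Nfe2l1), which binds antioxidant response elements in their promoters. Dividing and secreting cells are known to rely heavily on it. In immune cells and in the lung during inflammation, interferon replaces the catalytic subunits by Psmb9, Psmb10 and Psmb8.

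The smallest library, E(-)T(+), held 9354560 reads and the largest, E(+)T(+), held 13367945. They differed widely in what they contained. Hemoglobin took 14.3% and 14.2% of the reads in the normal control and normal exercise libraries, 1.43% in E(-)T(+) and 31.4% in E(+)T(+). The summed normalized count of 10 alveolar epithelial markers was 230061 in the normal control, 279234 in the normal exercise, 35266 in the cancer control and 188084 in the cancer exercise library, and that of 8 cell division genes was 333, 640, 8676 and 2976 in the same order. The lung markers were thus present in every library and lowest in E(-)T(+), and division genes were highest there.

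The 20S and 19S genes were well measured. The 31 of them had between 248 and 7171 reads in any library, and their lowest normalized read count was 231. Unless stated otherwise, values are the deposited log2(normalized read count + 1), given in the order E(-)T(-), then E(+)T(-), then E(-)T(+), then E(+)T(+). A difference is one library minus another on that scale, an effect of exercise is E(+) minus E(-), an effect of tumor is T(+) minus T(-), a difference of 0.32 is the lower fold limit that the study used for a heatmap, and an interval in parentheses is an exact 95% interval for the counting of reads alone. The libraries were made from transcript 3' ends, so gene length has little weight when genes are set side by side.

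The summed normalized count of the 20S core genes was 18440, 21820, 33154 and 29269, and that of the 19S cap genes was 20020, 22262, 33444 and 28648. Both were lowest in the normal control and highest in E(-)T(+), and their ratio, core over cap, stayed between 0.921 and 1.022. As a share of all reads, the core took 0.167%, 0.186%, 0.323% and 0.187%, and the cap 0.181%, 0.190%, 0.326% and 0.183%. With the hemoglobin reads left out of the total, the core took 0.195%, 0.217%, 0.328% and 0.273%, and the cap 0.211%, 0.221%, 0.331% and 0.267%, so that the position of E(+)T(+) depended on whether hemoglobin was counted. Within one library the genes were far from equal. The highest core gene was Psma7, or Psma2 in E(+)T(+), and it stood 13.1 to 19.8 times above the lowest, Psmb2 or, in E(+)T(+), Psma5. In the cap the highest was Psmd4, 5.66 to 7.78 times above the lowest, Psmd12 or, in E(-)T(+), Psmc5.

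**Figure D1:**
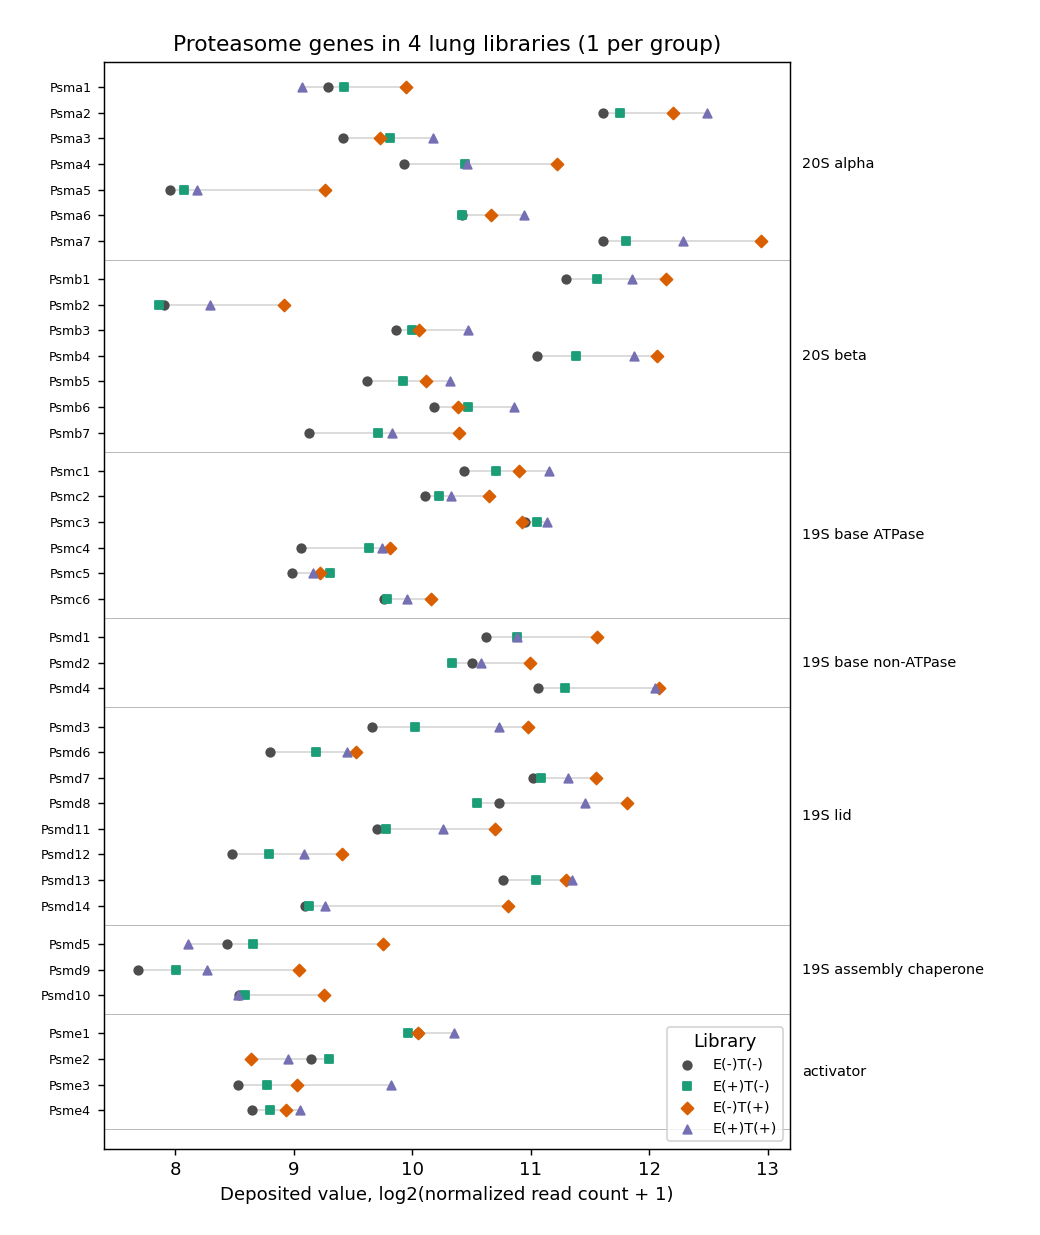
Deposited log2(normalized read count + 1) on the horizontal axis for 20S, 19S, assembly chaperone and activator genes, 1 row per gene, with 1 point per library (1 library per group). The E(-)T(+) library lies at the right end for 8 of 14 core and 13 of 17 cap genes, and the E(-)T(-) library at the left end for 12 and 14 of them.

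Many of the genes had the same highest or the same lowest library. Of the 41 genes, 25 were highest in E(-)T(+), against 35.5% of all 15164 rows that passed the same filter, and 29 were lowest in E(-)T(-), against 22.1%. The descending order of cancer control, cancer exercise, normal exercise and normal control was the commonest and was held by 17 of the 41 genes, among them 6 core and 10 cap genes, against 10.8% of all rows. This order needs E(+)T(+) above E(+)T(-). With library totals alone as the scaling, that held for only 6 of 14 core and 5 of 17 cap genes, so the order depended on the scaling. The 6 core genes that were not highest in E(-)T(+), Psma2, Psma3, Psma6, Psmb3, Psmb5 and Psmb6, were highest in E(+)T(+) as deposited. With library totals alone, 0 of 14 core genes were higher in E(+)T(+) than in E(-)T(+), so this group also depended on the scaling.

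Promoter sequences are shown for 4 genes with these patterns, and their motifs do not represent those of the other genes with the same pattern. Psma7 and Psmd14 had the largest tumor effects without exercise of the core and the cap, and Psmb5 and Psmb6 are catalytic genes of the group that was highest in E(+)T(+) as deposited. Each runs 5′ to 3′ on the gene's strand from 250 bases before to 50 bases after the RefSeq start (build GRCm38.p6), and capitals mark, on either strand, the antioxidant response element core TGACNNNGC, the CCAAT box and the SP1 box GGGCGG.
Psmb5, chr14:54617946-54618245, minus strand: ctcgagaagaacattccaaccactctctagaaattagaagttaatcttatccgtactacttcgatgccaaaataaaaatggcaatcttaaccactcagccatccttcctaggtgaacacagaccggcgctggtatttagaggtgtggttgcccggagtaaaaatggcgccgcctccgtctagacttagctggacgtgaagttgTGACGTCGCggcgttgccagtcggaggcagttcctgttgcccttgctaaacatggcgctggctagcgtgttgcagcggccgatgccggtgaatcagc
Psmb6, chr11:70525107-70525406, plus strand: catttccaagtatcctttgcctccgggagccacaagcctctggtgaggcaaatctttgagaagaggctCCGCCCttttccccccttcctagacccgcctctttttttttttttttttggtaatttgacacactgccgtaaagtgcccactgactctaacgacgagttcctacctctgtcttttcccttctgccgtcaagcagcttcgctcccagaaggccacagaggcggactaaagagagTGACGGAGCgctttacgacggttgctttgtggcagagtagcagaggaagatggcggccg
Psma7, chr2:180042415-180042714, minus strand: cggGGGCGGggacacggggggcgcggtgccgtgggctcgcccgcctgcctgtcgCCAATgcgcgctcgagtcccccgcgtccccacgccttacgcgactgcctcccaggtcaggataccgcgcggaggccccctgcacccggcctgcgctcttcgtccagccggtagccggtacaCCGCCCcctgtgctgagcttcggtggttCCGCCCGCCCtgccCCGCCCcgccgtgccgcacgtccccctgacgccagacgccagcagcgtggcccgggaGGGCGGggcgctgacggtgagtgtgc
Psmd14, chr2:61711444-61711743, plus strand: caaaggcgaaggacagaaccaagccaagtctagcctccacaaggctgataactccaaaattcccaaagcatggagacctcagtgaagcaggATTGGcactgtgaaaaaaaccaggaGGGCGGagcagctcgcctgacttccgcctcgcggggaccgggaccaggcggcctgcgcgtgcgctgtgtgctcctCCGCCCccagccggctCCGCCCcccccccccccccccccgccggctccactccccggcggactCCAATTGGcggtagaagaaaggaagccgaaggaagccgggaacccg
Psmb5 holds one match to the response element core, TGACGTCGC, which begins 47 bases before the start, and Psmb6 holds one, TGACGGAGC, 9 bases before it, beside 1 SP1 box. Psma7 has 6 SP1 boxes and 1 CCAAT box in capitals, and Psmd14 has 3 of each, where adjacent or overlapping matches run together. A promoter was found for 34 of the 41 genes and 25 of the 31 core and cap genes. Of these 25, the response element core was present in 4 (Psmb5, Psmb6, Psmc6 and Psmd12), or 16.0%, which is close to the 14.0% of all genes with a promoter. It did not follow the patterns above. Psmc6 and Psmd12 were highest in E(-)T(+), and Psma2, Psma3, Psma6 and Psmb3, highest in E(+)T(+) as deposited, had no match. The CCAAT box was present in 40.0% of the 25 against 41.1%, and the SP1 box in 60.0% against 38.2%. The tumor effect without exercise had a median of 0.45 in the 4 genes with the response element core and 0.72 in the 21 without, with ranges of 0.20 to 0.92 and 0.20 to 1.71 that overlap. In the other comparisons the median was higher in the genes with it, and the ranges also overlapped. The medians with and without it were 0.30 and 0.20 in the exercise effect without tumor. They were 0.00 and -0.195 in the exercise effect with tumor, and 0.34 and 0.30 in the tumor effect with exercise. A match describes these letters only.

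In the comparison of exercise without tumor, E(+)T(-) against E(-)T(-), the proteasome genes were slightly higher in the exercised lung. The median difference was 0.23 in the 20S core and 0.23 in the 19S cap, against 0.00 over all rows, and 13 of 14 core and 15 of 17 cap genes were above 0. None of the 31 genes was 2-fold higher or lower, against 5.28% and 4.70% of all rows and 1.68% and 0.447% of rows with a mean of at least 100, the range in which the 31 genes lie. At 0.32 or more, 8 were higher and 0 lower, against 21.6% and 22.8%. With library totals alone as the scaling, which shifted the median of all rows to -0.08, the core and cap medians were 0.14 and 0.15, and 12 core and 11 cap genes were above 0. With totals without hemoglobin both were 0.14. Neutrophil markers summed to 3859 normalized counts in the normal control and 12027 in the normal exercise library, and their part in these values was not tested. Reads of genes that were abundant in the cancer control also occurred in the normal exercise library. Among rows that had no read in the normal control but 500 or more normalized counts in the cancer control, which were 9, all had reads in the normal exercise library, at 0.642% to 2.18% of the cancer control value. With the median of these shares of the cancer control subtracted, the core and cap medians were 0.19 and 0.20.

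In the alpha ring the largest of these exercise effects was in Psma4, at 9.93, 10.45, 11.22 and 10.46, a difference of 0.52. Psma6, at 10.42, 10.42, 10.66 and 10.94, differed by 0.01. In the beta ring, the trypsin-like subunit Psmb7 had the largest, with 9.13, 9.71, 10.39 and 9.83 and a difference of 0.59. Its normal control value was thus the lowest and its E(-)T(+) value the highest of the libraries. The chymotrypsin-like Psmb5 (9.62, 9.92, 10.12 and 10.32) differed by 0.31 and the caspase-like Psmb6 (10.18, 10.47, 10.39 and 10.86) by 0.29. Psmb2, a structural beta subunit, was the only core gene below 0, by -0.04. In the cap, the ATPase Psmc4 was highest, with 9.06, 9.63, 9.82 and 9.75 and a difference of 0.57, and the cap genes below 0 were Psmd8 (-0.19) and Psmd2 (-0.16).

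In the comparison of tumor without exercise, E(-)T(+) against E(-)T(-), core and cap genes were both higher in the tumor-bearing lung. The median difference was 0.75 in the core and 0.72 in the cap, folds of 1.69 and 1.65, against -0.03 over all rows. All 14 core genes and 16 of 17 cap genes were above 0. At 2-fold, 10 of the 31 were higher and 0 lower, against 20.6% and 25.7% of all rows, and at 0.32 or more 25 were higher and 0 lower, against 38.7% and 41.5%. The count at 2-fold depended on the scaling. Of all 41 genes, 13 were past 2-fold as deposited, 12 higher and 1 lower, against 20.6% higher and 25.7% lower of all rows. With library totals alone 16 were past 2-fold in either direction, against 22.8% higher and 23.9% lower of all rows. With totals without hemoglobin 9 were, against 18.8% higher and 27.5% lower of all rows. In these libraries the 8 cell division genes were also higher in E(-)T(+), all of them by at least 4.03, and the alveolar epithelial, endothelial and erythroid lists were lower, from 230061 to 35266, from 19040 to 2265 and from 1589519 to 146925 summed normalized counts. Neutrophil markers summed to 3859 and 11191 normalized counts, and of 4 intestinal epithelial or carcinoma genes Krt20 had 0 reads in the normal control and 2696 in the cancer control, Epcam 767 and 176, Vil1 5 and 5, and Cdx2 0 in both. The B cell markers Cd79a and Ms4a1 and the T cell marker Cd3g had reads in the normal control and 0 in the cancer control. The part of this difference in cell content in the proteasome values was not tested.

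The core genes past 2-fold in this comparison were from both rings. Psma7, which the deposited values place highest of all core genes in that library, was 11.61, 11.81, 12.94 and 12.28, a difference of 1.33 (1.27 to 1.39). Psma5, at 7.96, 8.08, 9.27 and 8.19, differed by 1.31 (1.10 to 1.52), and Psma4 by 1.29 (1.19 to 1.40). Each of these alpha genes was highest in E(-)T(+). In Psma7 the E(+)T(+) value, 12.28, also stood above both tumor-free libraries, while in Psma5 and Psma4 it was close to that of E(+)T(-). In the beta ring Psmb7 differed by 1.26 (1.13 to 1.40), Psmb4 by 1.01 (0.94 to 1.09) and Psmb2 by 1.01 (0.79 to 1.23). The values of Psmb4 were 11.05, 11.38, 12.06 and 11.87 and those of Psmb2 were 7.90, 7.86, 8.92 and 8.30, so that both tumor-bearing libraries stood above both others. The intervals of Psmb4 and Psmb2 reached under 2-fold. The reads of Psmb7 cannot be told apart from those of Nek6, which overlaps its 3' end on the other strand in GENCODE M21, since the sources do not state whether strand was used in counting.

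The rest of the core was less far apart. Psma1 (9.29, 9.43, 9.94 and 9.07) differed by 0.66, Psma2 (11.61, 11.76, 12.20 and 12.49) by 0.59 and Psma3 (9.41, 9.81, 9.73 and 10.18) by 0.32. Psma3 is overlapped at its 3' end by the transcript 3110056K07Rik. Psmb1 (11.29, 11.56, 12.14 and 11.85) differed by 0.85, and Psmb3 (9.86, 9.99, 10.06 and 10.47) had the smallest difference, 0.20. Among the catalytic genes Psmb5 differed by 0.50 and Psmb6 by 0.20, so the 3 active sites were not equally higher, Psmb7 being far above the other two.

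In the cap the largest difference was in the lid. Psmd14, the metalloprotease that cuts ubiquitin from the substrate (chr2:61711694-61800376), was 9.10, 9.13, 10.81 and 9.27, a difference of 1.71 (1.58 to 1.85) or 3.28-fold. The other 3 libraries lay within 0.17 of each other, so E(-)T(+) alone stood out. The lid subunit Psmd3 was 9.66, 10.02, 10.98 and 10.73 (difference 1.32), and Psmd8 was 10.73, 10.55, 11.81 and 11.46 (difference 1.08, interval 0.99 to 1.16). In both, the tumor-bearing libraries were above the others. The ubiquitin receptor Psmd4 was 11.06, 11.29, 12.08 and 12.05, a difference of 1.02 (0.95 to 1.09). Psmd11 was 9.70, 9.78, 10.70 and 10.26, and Psmd12 was 8.48, 8.79, 9.41 and 9.09, differences of 0.99 and 0.92 that missed 2-fold. The remaining lid genes, Psmd6 (8.80, 9.19, 9.53 and 9.45), Psmd7 (11.02, 11.09, 11.55 and 11.32) and Psmd13 (10.76, 11.04, 11.30 and 11.35), differed by 0.53 to 0.72. The scaffold subunits Psmd1 (10.62, 10.89, 11.55 and 10.88) and Psmd2 (10.50, 10.34, 10.99 and 10.58) differed by 0.94 and 0.49. The 3' end of Psmd1 is overlapped on the same strand by Gm21972, which has no row of its own.

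The ring of 6 ATPases differed least of the cap, with a median of 0.43 against 0.96 in the lid, and none was past 2-fold. Psmc4 differed by 0.75 and Psmc2 (10.11, 10.22, 10.65 and 10.33) by 0.54. Psmc1 (10.43, 10.70, 10.90 and 11.15) differed by 0.47 and Psmc6 (9.76, 9.79, 10.16 and 9.96) by 0.40. Psmc5 (8.98, 9.31, 9.22 and 9.16) differed by 0.23, and Psmc3 (10.95, 11.05, 10.92 and 11.14), whose 3' end is overlapped by Slc39a13, by -0.03. Psmc3 was thus the one gene of core and cap below 0.

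**Figure D2:**
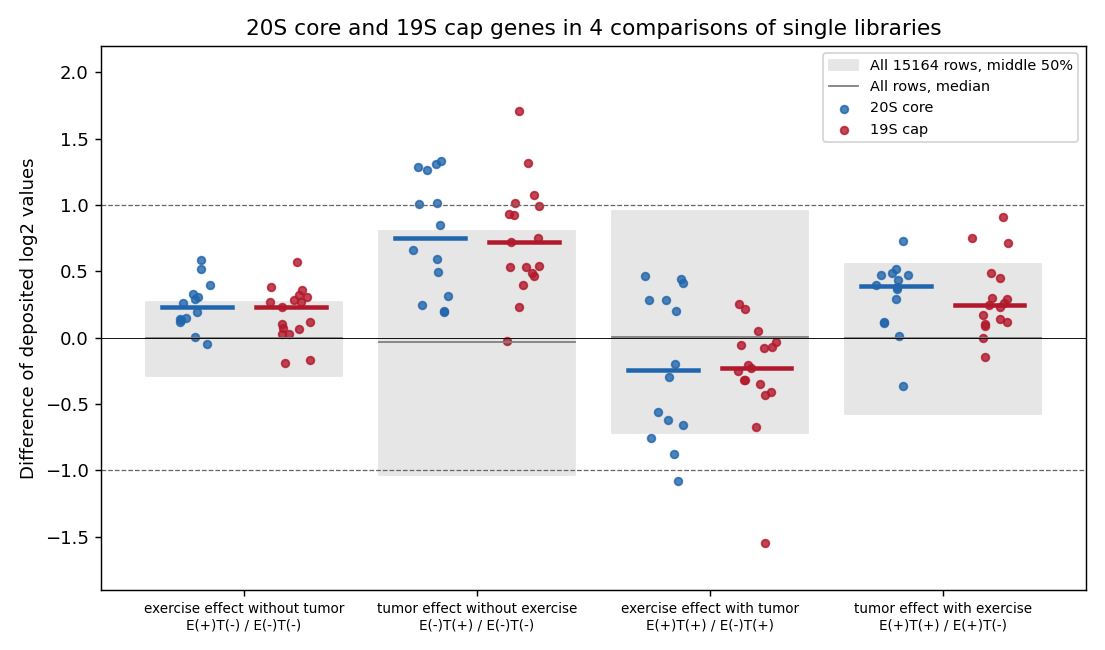
Difference of deposited log2 values on the vertical axis for each 20S core gene (blue) and 19S cap gene (red) in 4 comparisons of single libraries, with group medians as coloured bars, the quartiles and median of all 15164 rows in grey and 2-fold as dashed lines. Medians lie at 0.23 and 0.23, 0.75 and 0.72, -0.24 and -0.23, and 0.39 and 0.24 from left to right, and the last pair becomes -0.03 and -0.17 when libraries are scaled by their totals alone.

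In the comparison of exercise with tumor, E(+)T(+) against E(-)T(+), the cap genes were mostly lower in the exercised lung and the core genes were divided. This comparison shares the E(-)T(+) library with the one above. The median difference was -0.24 in the core and -0.23 in the cap, against 0.01 over all rows, with 8 of 14 core and 14 of 17 cap genes below 0. At 2-fold, 0 of the 31 were higher and 2 lower, against 24.3% and 17.7% of all rows, and at 0.32 or more 3 were higher and 11 lower, against 39.8% and 38.3%. The genes of the core spread more (SD over genes 0.55) than in the comparison of exercise without tumor (0.18), and so did all rows (1.48 and 0.70). With library totals alone, where hemoglobin took 31.4% of one library and 1.43% of the other, all rows had a median of -0.59 and all 31 genes were below 0. Neutrophil markers summed to 11191 normalized counts in E(-)T(+) and 207351 in E(+)T(+), and cell division genes to 8676 and 2976. Alveolar epithelial markers summed to 35266 and 188084, endothelial markers to 2265 and 17367 and erythroid markers to 146925 and 4931053, and the part of any of these lists in the proteasome values was not tested.

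Genes past 2-fold were lower. Psmd14 was -1.54 (-1.69 to -1.40), or 2.92-fold lower, with 1639 reads in the cancer control and 526 in the cancer exercise library, and it was -2.15 with library totals alone. Psma5 was -1.08 (-1.31 to -0.87), followed in the core by Psma1 at -0.88, Psma4 at -0.75, Psma7 at -0.66, Psmb2 at -0.62 and Psmb7 at -0.56. The core genes above 0 were Psmb6 at 0.47 (0.36 to 0.58), Psma3 at 0.45, Psmb3 at 0.41, Psma2 at 0.29, Psma6 at 0.28 and Psmb5 at 0.20 (0.08 to 0.33). Set beside the tumor effect without exercise, with which the E(-)T(+) library is shared, these 6 genes had differences of 0.20 to 0.59 there, and the other 8 core genes 0.66 to 1.33. In the cap, the highest were Psmc1 at 0.25, Psmc3 at 0.22 and Psmd13 at 0.05, while Psmd1 was -0.67 and Psmd4 -0.03.

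The exercise effect without tumor and the exercise effect with tumor use no library in common. In 7 of 14 core and 12 of 17 cap genes the first was above 0 and the second below 0 as deposited, against 24.9% of all rows. With library totals alone these were 12 core and 11 cap genes. That scaling moved the median of all rows to -0.59 in the exercise effect with tumor, so the 24.9% is not the matching share. As deposited, the other core genes were above 0 in both in 6 cases and below 0 in both in 1, Psmb2. Whether the effects differ could not be tested with 1 library per group.

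**Figure D3:**
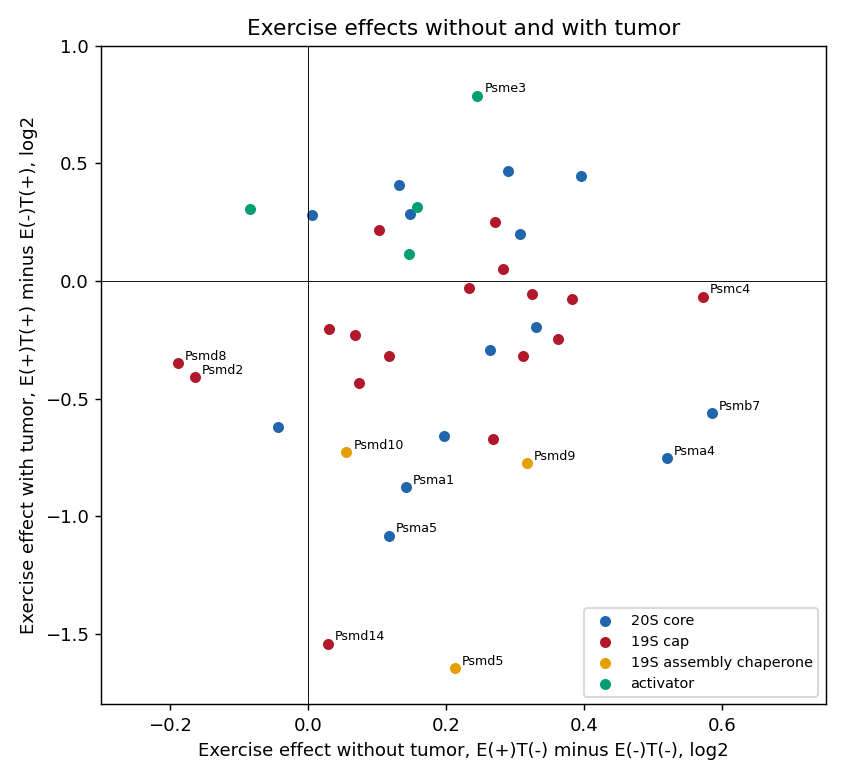
Exercise effect without tumor (horizontal, log2 difference) against exercise effect with tumor (vertical, log2 difference) for 20S, 19S, assembly chaperone and activator genes, 1 point per gene from single libraries. Most points lie right of 0, and below it lie 8 of 14 core and 14 of 17 cap genes and all 3 assembly chaperones, with Psmd5 at -1.65 and Psmd14 at -1.54 lowest.

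In the comparison of tumor with exercise, E(+)T(+) against E(+)T(-), the genes were mostly higher in the tumor-bearing lung, but this direction depended on the scaling. The median difference was 0.39 in the core and 0.24 in the cap, with 13 of 14 and 15 of 17 genes above 0, whereas with library totals alone the medians were -0.03 and -0.17, with 6 and 5 genes above 0. With totals without hemoglobin the cap median was 0.15. Relative to the median of all rows, which was 0.00 as deposited and -0.41 with library totals alone, the core stood at 0.39 and 0.38 and the cap at 0.25 and 0.24. At 2-fold, 0 of the 31 were higher and 0 lower, against 14.9% and 13.0% of all rows. At 0.32 or more 14 were higher and 1 lower, against 34.3% and 34.8%. The highest were Psmd8 at 0.91, Psmd4 at 0.75 (0.68 to 0.83), Psma2 at 0.73 and Psmd3 at 0.71. Between these libraries the summed normalized count of the neutrophil markers went from 12027 to 207351, of the cell division genes from 640 to 2976 and of the erythroid genes from 1667911 to 4931053, and their part in the proteasome values was not tested. Psma1 was lowest at -0.36, and Psmd14 differed by 0.14 (-0.03 to 0.31), where its tumor effect without exercise had been 1.71. The tumor effects without and with exercise, from separate libraries, were both above 0 in 13 of 14 core and 14 of 17 cap genes, against 32.2% of all rows, as deposited.

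The 3 assembly chaperones of the cap, which hold parts of the base during assembly and are not in the finished particle, followed E(-)T(+) closely. Psmd5 was 8.44, 8.65, 9.76 and 8.11, Psmd9 was 7.69, 8.01, 9.04 and 8.27, and Psmd10, the oncoprotein gankyrin, was 8.54, 8.59, 9.26 and 8.53. All were highest in E(-)T(+). The tumor effect without exercise was 1.31 (1.14 to 1.49), 1.35 (1.13 to 1.59) and 0.72, and the exercise effect with tumor was -1.65 (-1.87 to -1.44), -0.78 and -0.73. Psmd5 was thus 3.13-fold lower in E(+)T(+) than in E(-)T(+), with 235 and 788 reads, and it was the gene of the 41 with the lowest difference in that comparison. Their exercise effects without tumor were 0.21, 0.32 and 0.05.

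As deposited, the activators, which replace the cap at the ends of the core, were highest in E(+)T(+) in 3 of 4 cases, an end that 6 core and 3 cap genes and 22.3% of all rows shared. Library totals alone shifted the median of all rows in the exercise effect with tumor to -0.59, and Psme3 from 0.79 to 0.18. The count can therefore differ under that scaling. Psme3, the nuclear activator, was 8.53, 8.78, 9.03 and 9.82, highest in E(+)T(+). It differed by 1.04 (0.87 to 1.21) in the tumor effect with exercise, where it was the one gene of the 41 past 2-fold, but by 0.63 with library totals alone and 0.95 with totals without hemoglobin. Psme4, a large nuclear activator abundant in testis, was 8.65, 8.80, 8.94 and 9.06, with differences of 0.12 to 0.29. Psme1, a subunit of the interferon-induced activator, was 10.05, 9.96, 10.04 and 10.35, and its 3' end is overlapped by Emc9. Its partner Psme2 was 9.14, 9.30, 8.64 and 8.96, and Psme2b, a gene of 1 exon that is nearly identical to it, was 10.66, 10.64, 10.11 and 10.22. Gm12185 overlaps the 3' end of Psme2b on the same strand. The division of reads between Psme2 and Psme2b is also uncertain. Summed, they differed by 0.03, -0.54, 0.17 and -0.40 in the exercise effect without tumor, the tumor effect without exercise, the exercise effect with tumor and the tumor effect with exercise. The Psme2 pair was thus lower in both tumor-bearing libraries than in their tumor-free counterparts, where most core genes were higher.

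The other symbols were a testis form of an alpha subunit, Psma8, and Psmc3ip, a recombination factor of meiosis that is no subunit. Psma8 had 3, 19, 0 and 8 reads. Its exercise effect without tumor was 2.42 on the log2 scale. The interval for the log2 ratio of the reads, which lacks the + 1 of the deposited values, was 1.01 to 5.17 and is not centered on 2.42. In E(+)T(+) Psma8 was at least 2.85-fold higher than in E(-)T(+) when the latter is set at the floor of 3 reads. No fold is given between E(-)T(+) and E(-)T(-), which both lay at or under that floor. Psmc3ip, which overlaps Mlx at its 3' end, was 6.83, 6.69, 7.39 and 6.73. With Psma8 left aside for its few reads, 0, 12, 0 and 1 of the other 40 genes were 2-fold higher in the exercise effect without tumor, the tumor effect without exercise, the exercise effect with tumor and the tumor effect with exercise, against 5.28%, 20.6%, 24.3% and 14.9% of all rows. In the same order 0, 0, 3 and 0 were 2-fold lower, against 4.70%, 25.7%, 17.7% and 13.0%. Among rows with a mean of at least 100, as these 40 genes have, 1.68%, 18.3%, 19.5% and 9.80% were 2-fold higher and 0.447%, 19.98%, 14.3% and 8.14% lower.

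The constitutive catalytic genes were next compared with the interferon-induced subunits that replace them. Psmb9 was 9.91, 9.47, 9.41 and 9.21, Psmb10 was 9.41, 9.55, 8.92 and 10.00, and Psmb8 was 10.16, 9.89, 10.41 and 10.33. Psmb9 made up 45.3%, 33.3%, 33.6% and 24.3% of the reads of Psmb6 and Psmb9, so that its share was highest in the normal control and lowest in E(+)T(+). Psmb10 made up 54.8%, 47.1%, 26.4% and 53.0% of the reads of Psmb7 and Psmb10, with E(-)T(+) alone low. Psmb8 made up 59.4%, 49.4%, 55.1% and 50.2% of the reads of Psmb5 and Psmb8, and the intervals of the 2 exercised libraries, 47.3% to 51.6% and 48.1% to 52.3%, overlapped. In all 3 the share was highest in the normal control, although for Psmb10 its interval (52.2% to 57.4%) overlapped that of E(+)T(+) (50.5% to 55.4%). Named pseudogene copies exist for Psmb5, Psmb6 and Psmb7 in GENCODE M21, and their effect on these counts was not tested.

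**Figure D4:**
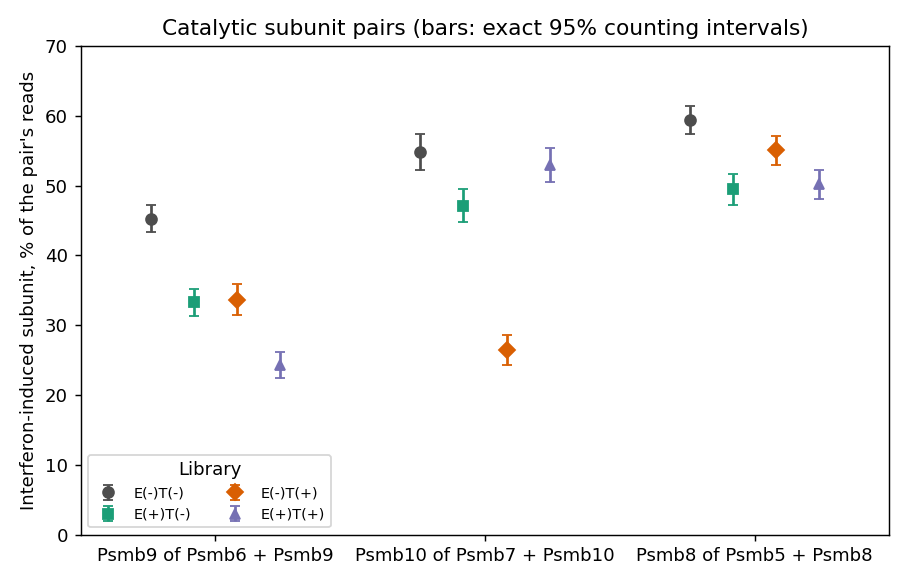
Percentage of a pair's reads that fell on the interferon-induced catalytic subunit (vertical axis, from 0) for 3 pairs in 4 libraries, 1 library per group, with exact 95% intervals for counting error only. The share of Psmb9 goes from 45.3% in E(-)T(-) to 24.3% in E(+)T(+), that of Psmb10 is lowest in E(-)T(+) at 26.4%, and that of Psmb8 lies between 49.4% and 59.4%.

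Further genes of the pathway, which the symbol rule did not take, were read in the same way. The 5 assembly chaperones of the core, Pomp and Psmg1 to Psmg4, were all above 0 in the tumor effect without exercise (0.56 to 0.96) and all below 0 in the exercise effect with tumor (-0.95 to -0.44), with medians of 0.69 and -0.83, where 48.9% and 50.3% of all rows were above 0. None of the 5 was past 2-fold in either, against 20.6% higher and 25.7% lower of all rows in the first and 24.3% and 17.7% in the second. Both comparisons use the E(-)T(+) library. In the tumor effect with exercise, which does not, 4 of the 5 were below 0 and the median was -0.35, where that of the core was 0.39, both as deposited. Library totals alone lowered the median of all rows to -0.41 and that of the core to -0.03 there. The value of these chaperones under that scaling is not given. Pomp, the maturation factor of the beta rings, was 11.67, 12.55, 12.63 and 12.19, and its exercise effect without tumor was 0.88 where the median of the 5 was -0.02. Of 8 further cap subunits and associated factors, all were above 0 in the tumor effect without exercise (median 0.71) and 2 of the 8, Uchl5 at 1.68 and Txnl1 at 1.02, were 2-fold higher, against 20.6% of all rows. Uchl5, the second deubiquitinase of the cap, was 8.12, 8.04, 9.81 and 8.30, so that E(-)T(+) stood alone, as for Psmd14. In the exercise effect with tumor, 6 of the 8 were below 0. Uchl5 at -1.50 and AI314180, a scaffold that ties core to cap, at -1.14 were 2-fold lower, 2 of the 8 against 17.7% of all rows.

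Genes that control the subunit genes had no shared direction. Nfe2l1, the factor itself, was 10.76, 10.60, 9.12 and 9.81, lowest in E(-)T(+), where most subunit genes were highest, with a tumor effect without exercise of -1.64. Ddi2, the protease that activates it, was 6.75, 6.94, 7.94 and 7.92, a difference of 1.18. Nfe2l2, the related factor NRF2, was 10.78, 10.83, 9.84 and 9.16, and its tumor effect with exercise was -1.66. Of the list of 5, which also held Ngly1 and Vcp, 2 were above 0 and 3 below in either tumor effect. The medians were -0.59 without and -0.63 with exercise.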

How the data were processed

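Lung RNA was measured in 4 libraries, 1 per group. The authors extracted RNA with TRIzol, made QuantSeq 3' mRNA-Seq libraries from 500 ng, sequenced 75-base single ends on a NextSeq 500, aligned with Bowtie2, counted with bedtools coverage and applied quantile normalization in edgeR. The processing notes name mm10, and tool versions, annotation and strand are not given in the sources used here. The deposited values are log2(normalized read count + 1) to 3 decimals, so scaling had already been applied and low genes have understated differences. Scaling of libraries that differ this much in content can shift every gene, so other scalings were tried.

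Whole reads were recovered by inverting the normalization as a negative-binomial quantile adjustment of each library to a common size, with a dispersion of 0.372. It used a relative size for each library and did not force the libraries to equal distributions. All values were reproduced within 0.001, 97.2% of them were resolved to 1 read, and on 8000 simulated rows all values up to 1000 reads came back exactly. Exact Clopper-Pearson intervals on ratios and shares of reads cover counting error only. A count of 0 was read as up to 3 reads, or 0.224 to 0.321 CPM. No p-value was computed, since each group had 1 library.

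Differences between libraries were summarised by medians, and by the number of genes at or past 2-fold and 0.32 on the log2 scale, which are limits the study used, beside all 15164 rows with a mean normalized count of at least 4. Values in every library were given for all 20S, 19S, chaperone and activator genes, which include the highest and lowest gene of each role in each comparison. The genes, pathway lists, markers and motifs were chosen with earlier results of these data known. Locations came from GENCODE M21 and promoters from RefSeq (GRCm38.p6). Comparisons that share a library are not independent of each other. Python 3.11.15, NumPy 2.4.6, SciPy 1.17.1 and pandas 2.3.3 were used. Some genes of the marker and pathway lists are not reported here.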

Additional observations from a re-analysis of the deposited data

Results flagged for a closer look

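The median exercise effect of the core and of the cap had opposite signs without and with tumor, although 7 of 14 core and 12 of 17 cap genes themselves went from above to below 0. The median difference of the 20S core was 0.23 in E(+)T(-) over E(-)T(-) and -0.24 in E(+)T(+) over E(-)T(+), and that of the 19S cap was 0.23 and -0.23. With 1 library per group, this difference between the tumor-free and the tumor-bearing lung was not tested.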

How the results depend on the processing

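Results were recomputed with libraries scaled by their totals, by totals without hemoglobin and by median-of-ratios size factors, with a pseudocount of 4, with no filter, with a filter at 100, with the material shared with E(-)T(+) subtracted, and with further subunits added. With a pseudocount of 4, no filter or size factors, no median moved by 0.1 or more and no count by 1.5 times. Library totals alone changed most. The core and cap medians became 0.86 and 0.83 for the tumor effect without exercise and -0.85 and -0.84 for the exercise effect with tumor. In the latter, 15 of the 41 genes instead of 4, Psma8 among them, were past 2-fold in either direction. Of all rows, 16.4% were 2-fold higher and 35.4% lower there under that scaling, against 24.3% and 17.7% as deposited. The core and cap medians of the tumor effect with exercise were reversed to -0.025 and -0.17. Totals without hemoglobin left 0 genes instead of 1, Psme3, past 2-fold in the tumor effect with exercise. Of all rows, 13.6% were higher and 15.1% lower there, and the cap median was 0.15 instead of 0.24. A filter at 100 left 0 instead of 1, Psma8, in the exercise effect without tumor, because it removes that gene. With Psmb8, Psmb9 and Psmb10 added, the core median of the tumor effect without exercise was 0.59 instead of 0.75 and that of the exercise effect without tumor 0.15 instead of 0.23. Apart from the arithmetic of the totals, the causes of these shifts were not tested. No paired analysis was possible because each group has 1 library. Psma8 and Psmb11 are at the limit of depth.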

Other observations

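Further genes of the ubiquitin pathway were read beside the proteasome. Rps27a, which encodes ubiquitin fused to a ribosomal protein, was 11.85, 12.44, 13.39 and 12.23 in the library order used above, highest in E(-)T(+), and its exercise effect with tumor was -1.15. Uba1, the main activating enzyme, was 10.96, 11.13, 11.67 and 11.55, also highest in E(-)T(+). Of 6 shuttle factors, which carry ubiquitylated proteins to the cap, the tumor effect without exercise was above 0 in 4 (median 0.10), where 48.9% of all rows were. None of the 6 was past 2-fold in any comparison, where 4.70% to 25.7% of all rows were in either direction. Sqstm1, an autophagy receptor, was 11.63, 11.59, 11.81 and 12.36, highest in E(+)T(+).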
